A study of Mus musculus with 2 samples.

Results

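Foxd1, Tcf21, Ebf1, Ebf2, Ebf3, Tbx18, Pdgfra and Pdgfrb are genes used to name kidney stroma, and their chromatin accessibility was read here in nuclei of the embryonic mouse kidney. They are 8 of the 16848 protein-coding genes with an accessible region called in both libraries, and each was given every peak over its gene body or up to 2 kb upstream. They were chosen by name as stromal genes, with their accessibility by class of nuclei in these libraries already known, so those levels are descriptions. Single-nucleus ATAC-seq, which counts transposase cuts in open chromatin, was done on kidneys at E15.5 with 1 library of each genotype. Enl-WT was Enl+/+ Wt1GFPCre/+ and Enl-T1 was Enl flox-T1/+ Wt1GFPCre/+, so the mutant carried 1 conditional knock-in allele of the Wilms tumor-associated insertion in Enl, a reader of acetylated histones. Both genotypes carried the Wt1GFPCre knock-in, which removes the function of 1 Wt1 allele and drives Cre in the nephron and the stromal lineages but is not expected in ureteric epithelium or endothelium. How many embryos went into a library was not given in the sources used here and their sex was not determined. With 1 library of each genotype, no difference below has a replicate check, and genotype and library cannot be told apart.

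Foxd1 is the forkhead transcription factor that marks progenitors of the cortical stroma, the cells that lie around the cap of nephron progenitors. Tcf21, a basic helix-loop-helix factor, is used in stroma and podocytes, and Tbx18, a T-box factor, marks mesenchyme that forms ureteric smooth muscle. Ebf1, Ebf2 and Ebf3 encode related early B-cell factors, which bind a palindromic DNA motif and are used in many mesenchymal tissues. Pdgfra and Pdgfrb encode the 2 receptors for platelet-derived growth factors, with Pdgfrb best known in pericytes, mesangial cells and other mural cells.

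The members differ greatly in how much accessible sequence they hold. Ebf1 had 36 peaks in Enl-WT and 37 in Enl-T1, and Ebf2 had 25 and 17. Ebf3 had 16 and 18, Pdgfra 9 and 5, Tbx18 8 and 4, and Pdgfrb 7 and 6. Foxd1 and Tcf21, which are short genes, had only 2 and 3 in Enl-WT and 1 each in Enl-T1. Of the 106 peaks in Enl-WT and 89 in Enl-T1, 31 (29.2%) and 14 (15.7%) were called in 1 library alone, near the 30% and 13.4% of all peaks of these libraries, and the rest paired into 75 shared regions, 31 of them in Ebf1, 16 in Ebf2, 12 in Ebf3, 6 in Pdgfrb, 5 in Pdgfra, 3 in Tbx18 and 1 each in Foxd1 and Tcf21. Unless said otherwise, values below use these shared regions, numbered along the chromosome within each gene. By GENCODE M21 on mm10, Foxd1 lies at chr13:98354242-98359305 and Tcf21 at chr10:22817281-22820174. Ebf1 lies at chr11:44617317-45008091, Ebf2 at chr14:67233292-67430918 and Ebf3 at chr7:137193673-137314445. Tbx18 lies at chr9:87702800-87731260 and Pdgfra at chr5:75152292-75198215. Ebf2 shared 8 of its regions with the antisense gene 4930438E09Rik, Tcf21 shared its only region with the antisense gene Gm10824, and accessibility has no strand that could separate such pairs.

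The sequences printed here are those the results below turn on. The first 3 are the central 300 bases of regions far apart between the libraries in stroma-like nuclei, one lower in Enl-T1 (Ebf1 region 3) and then the higher pair (Ebf1 region 16 and Ebf1 region 21), all of them intronic and read from GRCm38, the assembly called mm10. Ebf3 region 8, also intronic, was added after its values were seen because it stood out in 1 cluster of Enl-T1 nuclei. The last 2 are the bases just upstream of Foxd1, the member with the greatest difference in progenitors, and of Tcf21, taken from RefSeq on GRCm38.p6. Capitals mark the motifs found, which were an AP-1 match (TGANTCA) in Ebf1 region 3, a homeobox match (CCATAAA, here on the minus strand) in Ebf1 region 21, and early B-cell factor matches (CCCNNGGG) in Ebf3 region 8 and upstream of Tcf21.
Ebf1 region 3 (chr11:44638278-44638577, plus strand): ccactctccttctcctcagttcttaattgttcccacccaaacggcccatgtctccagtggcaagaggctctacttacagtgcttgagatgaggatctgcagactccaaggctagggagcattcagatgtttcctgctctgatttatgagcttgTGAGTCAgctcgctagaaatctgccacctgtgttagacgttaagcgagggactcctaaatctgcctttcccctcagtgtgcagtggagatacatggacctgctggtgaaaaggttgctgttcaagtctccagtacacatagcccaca
Ebf1 region 16 (chr11:44798230-44798529, plus strand): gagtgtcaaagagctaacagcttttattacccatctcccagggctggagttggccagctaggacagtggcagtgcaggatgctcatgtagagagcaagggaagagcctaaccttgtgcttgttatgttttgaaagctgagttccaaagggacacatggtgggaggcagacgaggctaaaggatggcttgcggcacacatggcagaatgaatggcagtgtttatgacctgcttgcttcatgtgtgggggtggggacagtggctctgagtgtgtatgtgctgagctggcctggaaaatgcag
Ebf1 region 21 (chr11:44873877-44874176, plus strand): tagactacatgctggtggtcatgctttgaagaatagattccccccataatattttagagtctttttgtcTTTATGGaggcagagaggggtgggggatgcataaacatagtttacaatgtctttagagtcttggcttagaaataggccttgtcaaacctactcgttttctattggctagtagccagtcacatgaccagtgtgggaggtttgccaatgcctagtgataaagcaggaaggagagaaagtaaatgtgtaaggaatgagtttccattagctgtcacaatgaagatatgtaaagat
Ebf3 region 8 (chr7:137297961-137298260, plus strand): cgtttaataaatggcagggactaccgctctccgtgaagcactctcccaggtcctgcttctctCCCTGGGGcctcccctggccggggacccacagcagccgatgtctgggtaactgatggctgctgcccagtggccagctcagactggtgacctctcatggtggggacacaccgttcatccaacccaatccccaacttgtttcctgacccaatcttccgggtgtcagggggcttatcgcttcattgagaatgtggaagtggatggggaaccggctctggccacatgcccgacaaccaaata
Foxd1 promoter (chr13:98353995-98354241, plus strand): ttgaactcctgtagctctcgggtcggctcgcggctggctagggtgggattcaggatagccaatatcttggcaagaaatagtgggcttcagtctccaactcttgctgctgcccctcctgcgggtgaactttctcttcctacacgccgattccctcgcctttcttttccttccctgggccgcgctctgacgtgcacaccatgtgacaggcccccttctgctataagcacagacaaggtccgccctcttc
Tcf21 promoter (chr10:22820175-22820393, minus strand): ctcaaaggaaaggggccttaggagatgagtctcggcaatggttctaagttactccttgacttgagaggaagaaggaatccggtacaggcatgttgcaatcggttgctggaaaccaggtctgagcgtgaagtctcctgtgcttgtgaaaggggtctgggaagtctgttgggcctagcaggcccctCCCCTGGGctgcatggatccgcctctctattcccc

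The 6 motifs that were searched for, on both strands of a window at the centre of each region, were found in few member regions, and their shares are given with no test. The early B-cell factor motif was in 11 of 75 member regions (14.7%) and in 11.4% of all shared regions, and the E-box CAGCTG in 17 (22.7%) and 23.6%. The forkhead motif GTAAACA was in 1 (1.33%) against 4.76% of all, AP-1 in 4 (5.33%) against 10.2%, the homeobox motif in 2 (2.67%) against 5.52%, and the T-box motif GGTGTGA in 3 (4%) against 4.12%. In RefSeq promoters of 300 bases, which were found for 6 members, Tcf21 and Ebf3 held the early B-cell factor motif, which 13.4% of all promoters held. The other 5 motifs were in no member promoter, which says only that these letters are not in that window.

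After barcodes with fewer than 2000 counts were set aside, 9472 Enl-WT and 12635 Enl-T1 nuclei remained, with medians of 14789.5 and 8753 counts, so Enl-T1 was the shallower library. The libraries had 149 barcodes in common. Nuclei were clustered with the member loci left out, and clusters were named "-like" from other marker genes. Enl-WT gave 2925 stroma-like nuclei (30.9%) and Enl-T1 5064 (40.1%), and nephron progenitor-like nuclei 1845 (19.5%) and 1289 (10.2%). The latter shares turned with the processing, to 15.4% and 32.7% with doublets removed, 23.4% and 34.3% with at least 5000 counts per nucleus and 15.2% and 33.6% with each library clustered alone, so no direction is read from them. The 10 stroma markers that named these clusters were all detected in them, which the naming fixed, with summed levels of 586 and 584 CPM (counts scaled to 1000000 counts in shared regions) against 350 and 345 CPM in nephron progenitor-like nuclei. Different clusters held the stroma of the genotypes, because cluster 10 had 1067 Enl-T1 and 8 Enl-WT nuclei, cluster 13 had 548 and 29, and cluster 5 had 361 and 942. Most values in the matrices were even, 91.1% in Enl-WT and 88.0% in Enl-T1, as when both ends of a fragment are counted, so the 95% intervals given here were computed on counts divided by 2 and cover counting error only.

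Of the 8 members, 7 were more accessible in stroma-like nuclei than in any other class of at least 50 nuclei, in both libraries, once the few smooth muscle-like nuclei (79 and 50) were set aside. Ebf2 was the exception. Pdgfra was at 100.3 CPM in stroma-like nuclei of Enl-WT and 104 CPM in those of Enl-T1, against 50.96 and 50.28 CPM in endothelial-like nuclei and 36.6 and 38.0 CPM in nephron progenitor-like nuclei. Outside stroma-like and smooth muscle-like nuclei, its highest level in Enl-T1 was 68.2 CPM in the 180 nephron tubule-like nuclei. Pdgfrb was highest in smooth muscle-like nuclei, the mural class it is known for, at 224 CPM in Enl-WT and 262 CPM in Enl-T1. It followed in stroma-like nuclei at 136 and 110.0 CPM and in podocyte-like nuclei of Enl-WT at 77.9 CPM, and the intervals of these 3 classes did not overlap in Enl-WT.

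Foxd1 was at 39.8 CPM (37.0 to 42.8) in stroma-like nuclei of Enl-WT, which could not be told apart by counting error from 38.5 CPM (33.0 to 44.6) in podocyte-like nuclei. Nephron progenitor-like nuclei of Enl-WT followed at 27.8 CPM (24.97 to 30.8), above endothelial-like nuclei at 15.9 CPM and ureteric epithelium-like nuclei at 15.0 CPM. In Enl-T1 stroma-like nuclei it was at 36.0 CPM, with an interval that overlapped that of immune-like nuclei (25.3 CPM on 25 counts), and the 11 podocyte-like nuclei of Enl-T1 were too few to read. Tcf21 was at 28.0 CPM in stroma-like nuclei of Enl-WT and 19.2 CPM in podocyte-like nuclei, the other cell type it is used in. It was low in endothelial-like nuclei, at 3.02 CPM in Enl-WT and 4.14 CPM in Enl-T1.

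The 3 early B-cell factor genes had unlike profiles. Ebf1 was at 283 CPM in stroma-like nuclei of Enl-WT and 293 CPM in those of Enl-T1, with endothelial-like nuclei next at 207 and 233 CPM. Ebf3 was at 80.02 and 86.8 CPM in stroma-like nuclei and at 65.6 and 74.7 CPM in nephron progenitor-like nuclei, and in Enl-T1 its interval in stroma-like nuclei overlapped that of endothelial-like nuclei (77.8 CPM). Ebf2 was not a stromal gene by this measure. It was at 136 CPM in podocyte-like and 133 CPM in nephron progenitor-like nuclei of Enl-WT, whose intervals overlapped, and at 113 CPM in stroma-like nuclei, and in Enl-T1 nephron progenitor-like nuclei (145 CPM) were again above stroma-like nuclei (105 CPM). Tbx18 was at 32.3 CPM in stroma-like nuclei of Enl-WT and 38.0 CPM in those of Enl-T1, with smooth muscle-like nuclei at 33.6 and 59.8 CPM on few counts.

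**Figure D1:**
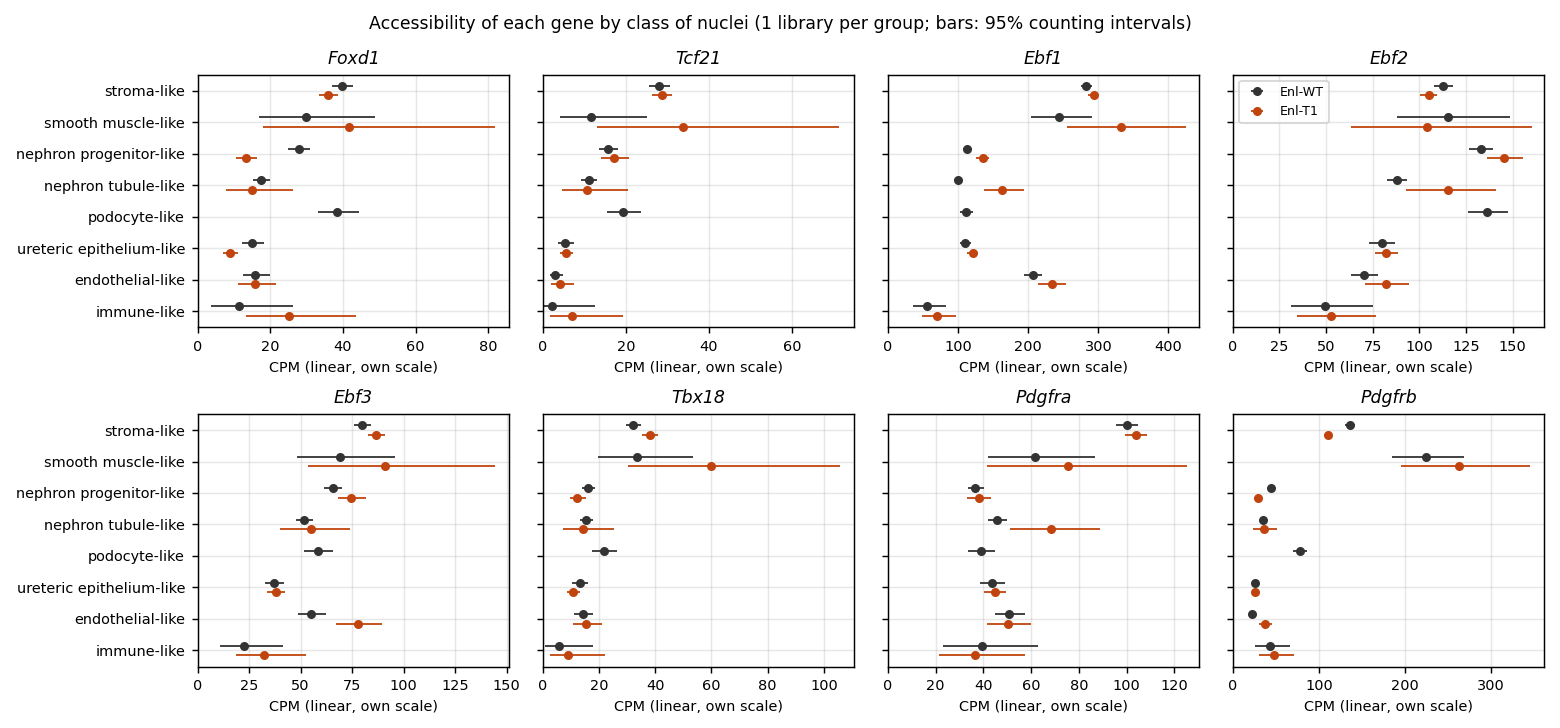
Accessibility of each member (CPM in shared regions, linear axes that differ between panels) in 8 classes of nuclei, with Enl-WT in black and Enl-T1 in orange, 1 library each, and bars for 95% counting intervals; podocyte-like nuclei of Enl-T1 (11) are not drawn. Foxd1 in nephron progenitor-like nuclei stands at 27.8 CPM in Enl-WT and 13.2 CPM in Enl-T1, while Ebf2 is at 133 and 145 CPM there.

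Read per kb of covered peak, which allows genes to be compared, the compact genes led in stroma-like nuclei. Tcf21 was at 30.1 CPM per kb in Enl-WT and 34.1 in Enl-T1, Foxd1 at 27.7 and 36.2, Pdgfrb at 23.1 and 21.3 and Pdgfra at 22.3 and 24.6. Tbx18 was lower, at 10.5 and 14.2 CPM per kb, and the long genes Ebf1 (9.53 and 10.3), Ebf3 (6.83 and 8.05) and Ebf2 (6.64 and 6.9998) were lowest. Enl-T1 peaks were narrower, with a mean of 912 bp against 1013 bp, which raises its values on this scale.

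The first comparison asks whether the stromal genes kept their accessibility in Enl-T1 stroma, where the Cre is active. At the level of whole genes they were close to Enl-WT, and 0 of 8 members moved by 1.5-fold in either direction. Across 16314 genes with enough counts, 1.03% were at least 1.5-fold higher and 0.693% at least 1.5-fold lower in stroma-like nuclei of Enl-T1. The median log2 ratio of Enl-T1 to Enl-WT was 0.04 over the members and 0.00 over all genes. Pdgfrb was furthest from Enl-WT, with a log2 ratio of −0.31 (−0.39 to −0.22) on 4974 (Enl-WT) and 4285 (Enl-T1) counts. Tbx18 was at 0.24 (0.08 to 0.39), Foxd1 at −0.15 (−0.30 to 0.00) and Ebf3 at 0.12 (0.02 to 0.22). Ebf2 was at −0.10 (−0.19 to −0.01), and Tcf21, Ebf1 and Pdgfra lay between 0.03 and 0.05. The width of a called peak bears on Foxd1, whose single region was called 1437 bp wide in Enl-WT and 993 bp wide in Enl-T1. Per kb of peak its ratio in stroma-like nuclei turned to 0.38, a reading added after the data were seen, so its direction in stroma is not settled.

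**Figure D2:**
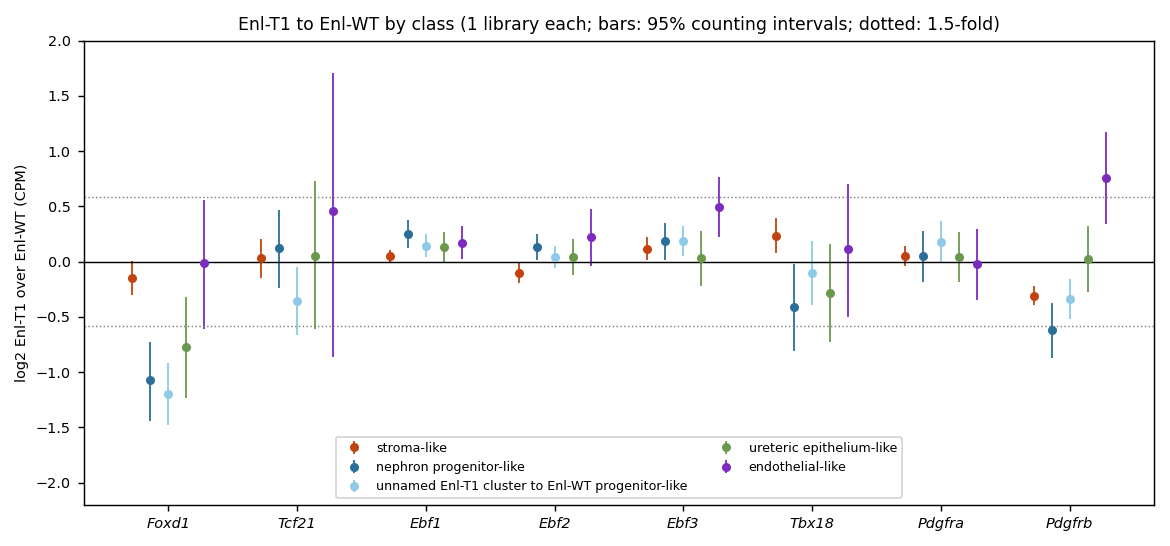
Log2 ratio of Enl-T1 to Enl-WT accessibility for each member in 4 classes of nuclei, and for the unnamed Enl-T1 cluster 1 against nephron progenitor-like nuclei of Enl-WT, with bars for 95% counting intervals and dotted lines at 1.5-fold. The stroma-like points lie between −0.31 and 0.24, and Foxd1 lies at −1.08 in nephron progenitor-like nuclei and at −1.20 in cluster 1.

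Shares of nuclei gave the same order for Foxd1, with intervals that overlapped. They rest on the same counts and the same unequal peak width, so they are not a separate check. With each nucleus thinned to 2000 counts, 7.28% (6.37 to 8.29%, exact binomial) of stroma-like nuclei of Enl-WT and 5.92% (5.29 to 6.61%) of those of Enl-T1 had a count in Foxd1. Endothelial-like nuclei, which should lack its use, had 2.35% and 2.78%, and immune-like nuclei 1.01% and 3.75%, and these give the background. Without thinning the stromal shares were 20.8% and 12.8%, at median depths of 12424 and 7613 counts. For Pdgfrb the thinned shares were 22.0% and 16.6% in stroma-like nuclei against 4.44% and 5.07% in endothelial-like nuclei.

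Levels varied widely among the stroma-like clusters, and members were high in different ones. Foxd1 was highest in cluster 5, at 55.9 CPM in Enl-WT and 58.0 CPM in Enl-T1, and in the Enl-T1 cluster 10 at 50.4 CPM. It was low in cluster 3 (19.3 and 20.5 CPM), whose leading gene is Alx1, and in the Enl-T1 nuclei of cluster 13 (14.7 CPM). Within the 3 clusters that held over 100 nuclei of each library (0, 3 and 5), the Foxd1 intervals of the genotypes overlapped, with 43.2 CPM in Enl-T1 against 38.1 CPM in Enl-WT in cluster 0. Ebf2 was likewise highest in cluster 5, at 154 and 151 CPM, and lower in cluster 3, at 75.6 and 72.7 CPM. In that highest cluster it was above nephron progenitor-like nuclei (133 and 145 CPM) and podocyte-like nuclei of Enl-WT (136 CPM). The lower Ebf2 level of stroma-like nuclei together thus does not hold for each cluster.

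Tbx18 set cluster 13 apart. It was at 74.7 CPM in the 548 Enl-T1 nuclei of that cluster and at 71.0 CPM (38.8 to 119) in the 29 Enl-WT nuclei, whereas the other stroma-like clusters of over 50 nuclei lay between 20.9 and 36.0 CPM in either library. The region at the Tbx18 start (Tbx18 region 3) was at 52.4 CPM there in Enl-T1 against 26.5 CPM in cluster 0 of Enl-WT. Foxd1 and Ebf2 were low in the same nuclei, with log2 ratios to all stroma-like nuclei of Enl-WT of −1.44 (−2.05 to −0.89) and −0.79 (−1.06 to −0.52). Cluster 13 was thus Tbx18-rich in both genotypes and held more Enl-T1 than Enl-WT nuclei.

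Cluster 10, made almost entirely of Enl-T1 nuclei, was set beside cluster 5, the shared cluster nearest to it by Foxd1. Their like Foxd1 levels follow from that choice, while their Ebf3 and Pdgfrb levels differed. Against Enl-WT nuclei of cluster 5, the Foxd1 log2 ratio was −0.15 (−0.41 to 0.11). Ebf3 was at 145 CPM in cluster 10 and 105 CPM in cluster 5 of Enl-WT, a log2 ratio of 0.47 (0.30 to 0.64). Pdgfrb was at 87.2 CPM and 126 CPM, a log2 ratio of −0.53 (−0.72 to −0.34). A summed list of cortical stroma genes was at 306 CPM in Enl-WT nuclei of cluster 5 and 261 CPM in cluster 10. A cluster that holds almost only 1 library may reflect that library, and this was not tested. Only 8 Enl-WT nuclei fell in cluster 10, and their 25 counts in Ebf3 gave 334 CPM (175 to 577).

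Of the 12 Ebf3 regions, Ebf3 region 8 had the widest gap between cluster 10 and cluster 5 of Enl-WT. It is an intronic region 16.3 kb downstream of the start whose central sequence is printed above. In cluster 10 of Enl-T1 it was at 32.2 CPM from 250 counts. The same region was at 7.21 CPM in cluster 5 of Enl-WT and 8.48 CPM in cluster 5 of Enl-T1, at 5.72 and 5.68 CPM in cluster 0, and at 6.52 CPM in cluster 13 of Enl-T1. So the clusters that both genotypes share were low in each. The region over the Ebf3 start (Ebf3 region 12) was at 40.8 CPM in cluster 10 and 40.3 CPM in cluster 5 of Enl-WT.

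**Figure D3:**
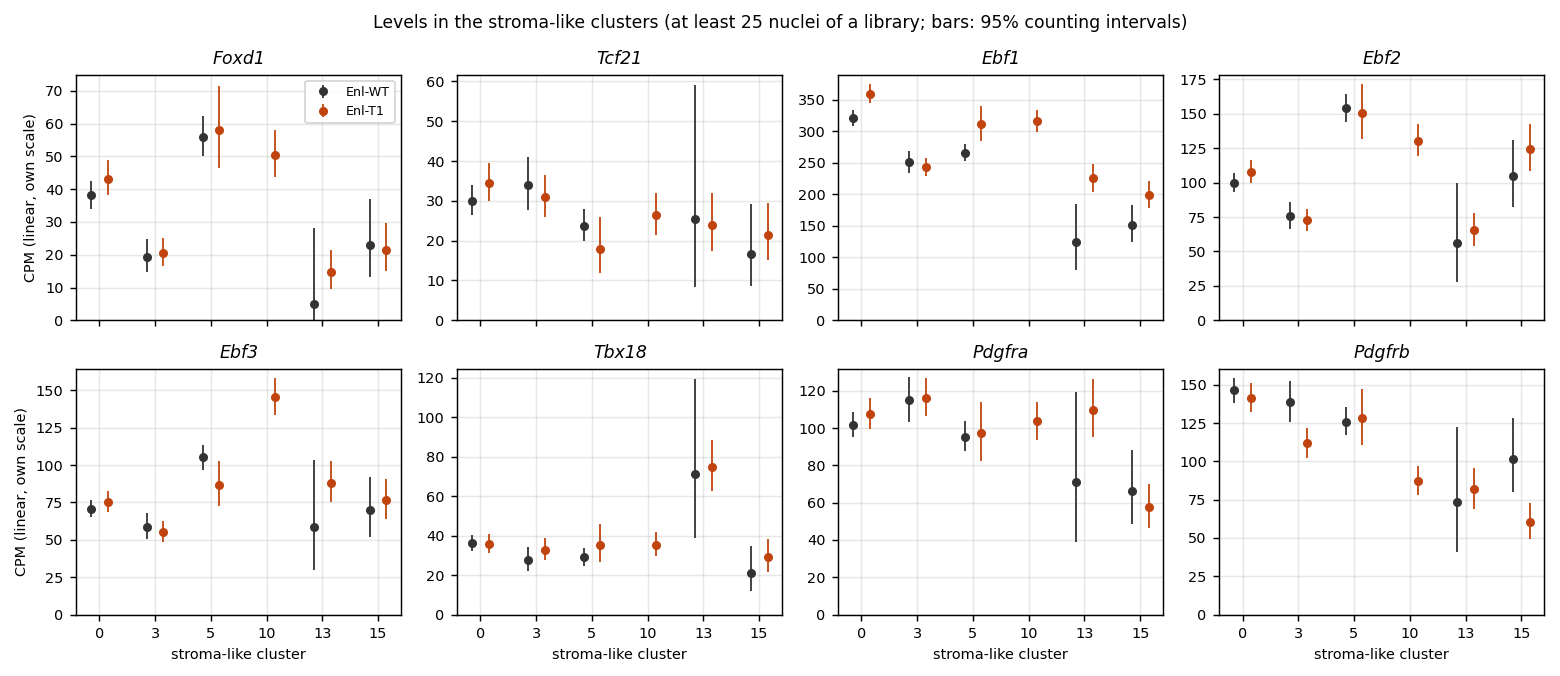
Accessibility of each member (CPM in shared regions, linear axes that differ between panels) in the 6 stroma-like clusters, for libraries with over 25 nuclei in a cluster, with 95% counting intervals. Ebf3 is highest in the Enl-T1 nuclei of cluster 10 (145 CPM), Tbx18 in cluster 13 (74.7 CPM in Enl-T1), and Foxd1 in clusters 5 and 10 (50.4 to 58.0 CPM).

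At the level of single regions the genes with near-equal totals held differences in both directions. Of the 75 member regions, 64 had at least 200 counts in stroma-like nuclei, of which 6 were at least 1.5-fold higher and 5 at least 1.5-fold lower in Enl-T1. Among all 79296 regions with as many counts, 7.61% were higher and 5.79% lower, so the members' counts were near the background. Their median log2 ratio was 0.06 against 0.02 over all regions. The regions past the fold belonged to Ebf1 (4 higher, 3 lower), Ebf2 (2 lower), Ebf3 (1 higher) and Tbx18 (1 higher), and none lay over the main start of a gene.

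Ebf1 had 27 of its 31 regions with enough counts, and those past the fold are described with no test of their number or place. Its 4 higher regions lay between 181 and 276 kb from the start and its 3 lower regions between 21.1 and 68.8 kb. Ebf1 region 21 was highest, with 101 counts in the control and 272 in the mutant (2.76 and 6.98 CPM, log2 ratio 1.34, 0.86 to 1.83). Ebf1 region 16 had 305 and 779 counts (8.34 and 19.99 CPM, log2 ratio 1.26, 0.99 to 1.54). Both are intronic, and their central sequences are printed above. On the other side, Ebf1 region 3 had 321 and 190 counts (8.78 and 4.88 CPM, log2 ratio −0.85, −1.23 to −0.47), and Ebf1 region 8, the most counted of the lower ones, had 953 and 671 (log2 ratio −0.60, −0.80 to −0.39). The region over the Ebf1 start was at 43.3 and 39.5 CPM (log2 ratio −0.13, −0.28 to 0.01), and Ebf1 region 9, at 79.6 kb the most counted of the others, was at 20.8 and 19.8 CPM.

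Whether these regions differed inside the shared clusters varied. Ebf1 region 16 was higher in Enl-T1 in each of them, with 7.76 and 15.3 CPM in cluster 0 (log2 ratio 0.98, 0.50 to 1.46), 22.1 and 32.3 CPM in cluster 3 (0.55, 0.13 to 0.99) and 2.04 and 4.57 CPM in cluster 5 (1.16, −0.42 to 2.63). Ebf1 region 21 was also higher in all 3, by 0.54 to 1.75, but only in cluster 5 did the interval leave 0. Ebf1 region 3 was a cluster 5 region, at 17.5 CPM in Enl-WT and 13.7 CPM in Enl-T1, and its log2 ratio was 0.04 in cluster 0 and −1.20 (−2.37 to −0.08) in cluster 3, on 38 and 24 counts. Its lower total in Enl-T1 stroma went with the smaller share of cluster 5 nuclei there, and how much of the difference that share accounts for was not tested.

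Ebf2 and Ebf3 had fewer such regions. The shared region nearest the Ebf2 start was at 26.4 and 24.3 CPM, and the most counted other one, Ebf2 region 3, at 12.03 and 12.4 CPM. In Ebf3, region 8 had 214 and 409 counts (5.85 and 10.5 CPM, log2 ratio 0.84, 0.50 to 1.19), while its ratios within clusters 0, 3 and 5 lay between −0.18 and 0.23. The Ebf3 start was at 32.2 and 28.2 CPM, and Ebf3 region 6, its most counted other region over all nuclei, at 3.31 and 3.44 CPM.

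The receptor genes differed from each other in pattern. All 5 Pdgfra regions were near Enl-WT, with log2 ratios from −0.06 to 0.15. The start was at 24.2 and 23.2 CPM and the most counted region, at another transcript start 3.92 kb downstream, at 24.7 and 26.7 CPM. In Pdgfrb, which lies on chromosome 18, 5 of 6 regions were lower in Enl-T1 stroma-like nuclei. The start was at 31.9 and 28.2 CPM (log2 ratio −0.18, −0.35 to −0.01), and the intronic region 9.49 kb downstream, which was the most counted of the others, at 34.2 and 26.9 CPM (−0.35, −0.52 to −0.18). The remaining 3 of these were at −0.42, −0.50 and −0.51, and the region 23.5 kb downstream was at 0.30 (−0.00 to 0.61). None reached 1.5-fold. In cluster 10 the Pdgfrb region 4, 13.5 kb downstream, was at 10.3 CPM against 22.6 CPM in cluster 5 of Enl-WT, and in cluster 0 it was at 26.2 and 26.1 CPM, but in cluster 3, also shared, it was at 19.3 CPM in Enl-WT and 13.1 CPM in Enl-T1 (log2 ratio −0.56, −1.10 to −0.02). For the whole gene the mean log2 ratio within clusters 0, 3 and 5 was −0.11, with 146 and 142 CPM in cluster 0 and 139 and 112 CPM in cluster 3. That mean leaves out cluster 15, with 90 Enl-WT and 336 Enl-T1 nuclei. There Pdgfrb was at 101.9 and 60.1 CPM (log2 ratio −0.76, −1.21 to −0.31). Cluster 15 shared leading genes, such as Rit2, Defb25 and Klhl1, with the unnamed cluster 1, and its relative depth was high (1.23). With member loci kept in clustering, the like cluster of 91 and 337 nuclei was unnamed, but with at least 5000 counts per nucleus it was again stroma-like. Whether cluster 15 is stroma is therefore not settled. The mean also leaves out cluster 13, where 29 Enl-WT nuclei gave a ratio of 0.15 (−0.63 to 1.04). A list of smooth muscle and mural markers, with 8 of 8 detected, summed in stroma-like nuclei to 287 CPM in Enl-WT and 256 CPM in Enl-T1. Of these 8 markers, 3 had log2 ratios above 0 and none passed 1.5-fold, with a median of −0.10 against 0.00 over all genes. The part of this list in the Pdgfrb difference was not tested.

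**Figure D4:**
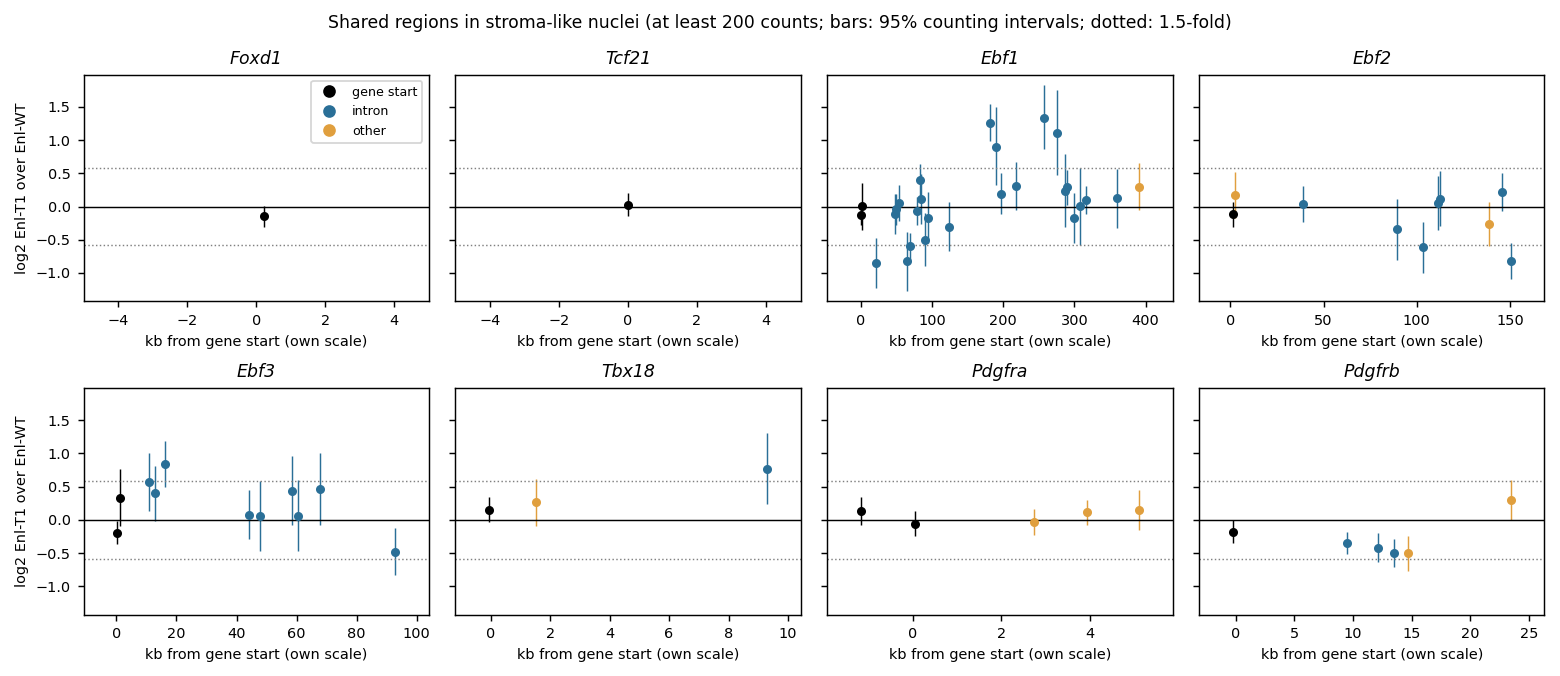
Log2 ratio of Enl-T1 to Enl-WT for each of the 64 member regions with at least 200 counts in stroma-like nuclei, against distance from the gene start in kb (axes differ between panels), with 95% counting intervals and dotted lines at 1.5-fold. Gene-start regions stay inside the dotted lines, while Ebf1 has 3 intronic regions below them up to 68.8 kb and 4 above them from 181 kb.

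Tbx18 region 1, intronic and 9.30 kb into the gene, had 95 and 173 counts in stroma-like nuclei (log2 ratio 0.77, 0.25 to 1.32). Its start was at 23.1 and 25.7 CPM (log2 ratio 0.15, −0.04 to 0.34), and a region over a coding exon 1.53 kb downstream at 6.59 and 7.90 CPM. The single regions of Foxd1 and Tcf21 lie over their starts and have been given above as gene values.

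The second comparison asks whether the stromal genes changed in nephron progenitors, the neighbouring lineage in which Cre is also active. Here the genotypes fell into different clusters. Cluster 2 held 1844 Enl-WT and 101 Enl-T1 nuclei and cluster 6 held 1 and 1188, while cluster 1, with 2730 Enl-T1 nuclei and no Enl-WT nucleus, had nephron progenitor as its best lineage by markers but too few of them raised (2) to be named. The 10 genes most raised in cluster 2 included Umod, a loop marker, and no progenitor marker, so the comparison is given by cluster as well as for the class. Progenitor markers, 8 of 8 detected, summed to 393 CPM in cluster 2 of Enl-WT, 340 CPM in cluster 6 and 291 CPM in cluster 1.

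Foxd1 was at a lower level in Enl-T1 progenitor nuclei, whichever cluster was read. It was at 27.8 CPM (24.98 to 30.8) in cluster 2 of Enl-WT and at 13.2 CPM (10.4 to 16.5) in cluster 6 of Enl-T1, 2.11-fold lower (log2 ratio −1.07, −1.45 to −0.71). The Enl-T1 nuclei of cluster 2 were at 13.0 CPM on 12 counts (4.78 to 28.4). Within that cluster the log2 ratio was −1.09 (−2.55 to 0.04), an interval that held 0. Cluster 1 was at 12.1 CPM (10.3 to 14.2). None of these Enl-T1 levels was above that of endothelial-like nuclei (15.9 CPM in Enl-WT, 15.7 CPM in Enl-T1), but ureteric epithelium-like nuclei of Enl-T1 were lower, at 8.78 CPM (6.88 to 11.04), so whether a background level was reached depends on the class taken for it. For the class as a whole 717 Enl-WT and 162 Enl-T1 counts gave a log2 ratio of −1.08 (−1.44 to −0.72). In thinned nuclei the share with a count was 5.16% in Enl-WT, while Enl-T1 had 2.17% (1.45 to 3.12%), against 2.35% and 2.78% in endothelial-like and 2.25% and 1.59% in ureteric epithelium-like nuclei. Per kb of the narrower Enl-T1 peak the ratio was −0.54, still lower but short of 1.5-fold. Foxd1 was also lower in ureteric epithelium-like nuclei of Enl-T1, outside the Cre lineages, at 8.78 against 15.0 CPM (log2 ratio −0.77, −1.23 to −0.32), but not in endothelial-like nuclei (−0.01, −0.61 to 0.56). Of 15532 genes tested in ureteric epithelium-like nuclei, 0.496% were at least 1.5-fold lower and 0.798% higher. By CPM, Foxd1 was the only member past that fold. Per kb of peak its difference in this class was short of 1.5-fold, at 10.4 CPM for the control and 8.84 CPM for the mutant. Endothelial-like nuclei then stood at 11.1 and 15.8 CPM per kb, higher for the mutant. The ureteric call and its contrast with endothelial-like nuclei therefore depend on the width of the called peak.

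Summed stroma markers in the same nuclei were at 350 CPM in cluster 2 of Enl-WT, 344 CPM in cluster 6 and 319 CPM in cluster 1, with 10 of 10 markers detected in each. Pdgfrb was the other member past 1.5-fold, at 44.2 CPM in cluster 2 of Enl-WT and 28.1 CPM in cluster 6 (log2 ratio −0.65, −0.91 to −0.39). In cluster 1 it was at 34.9 CPM, a log2 ratio of −0.34 (−0.52 to −0.16) to nephron progenitor-like nuclei of Enl-WT, which is short of 1.5-fold. The Pdgfrb call for the class (log2 ratio −0.62) was also lost with each library clustered alone (−0.33), at Leiden resolution 0.5 (−0.26), with doublets removed (−0.44), from the start region alone (−0.25) and per kb of peak (−0.43). For the class, Foxd1 and Pdgfrb made 2 of 8 members lower and 0 higher, against 1.47% lower and 1.04% higher of 15821 genes tested. Tbx18 was at 16.1 and 11.9 CPM in clusters 2 and 6 (−0.44, −0.86 to −0.03) and at 15.0 CPM in cluster 1.

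The early B-cell factor genes were not lower in these nuclei. From cluster 2 of Enl-WT to cluster 6 of Enl-T1, Ebf1 went from 114 to 133 CPM (log2 ratio 0.22, 0.10 to 0.35), Ebf2 from 133 to 147 CPM (0.14, 0.02 to 0.26) and Ebf3 from 65.6 to 76.6 CPM (0.22, 0.05 to 0.39). Tcf21 was at 15.7 and 17.4 CPM and Pdgfra at 36.7 and 38.1 CPM, each with an interval that held 0. By region, 27 member regions had at least 200 counts in the class, with 0 at least 1.5-fold higher and 6 lower, where 7.22% of 51539 regions were higher and 9.67% lower. The lower ones were Foxd1 region 1, Pdgfrb regions 2, 4 and 6, the Tbx18 start and Ebf1 region 12, with log2 ratios from −1.08 to −0.65. The Ebf1 start was at 0.40 (0.15 to 0.65) and the shared region nearest the Ebf2 start at 0.33 (0.04 to 0.61).

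Endothelial-like nuclei lie outside the Cre lineages, and members differed between the libraries there too. Pdgfrb was the only member past 1.5-fold there, at 22.1 CPM in Enl-WT and 37.5 CPM in Enl-T1 (log2 ratio 0.76, 0.34 to 1.17), on 220 and 181 counts. Among 13624 genes 1.04% were as much higher and 0.851% as much lower. Ebf3 was at 55.2 and 77.8 CPM (0.50, 0.22 to 0.77). Another scaling (TMM factors) moved the median of endothelial-like nuclei by 0.09 and left Pdgfrb at 0.67 and Ebf3 at 0.40. Ebf1 was at 0.17 (0.02 to 0.32), and the intervals of the other 5 members held 0.

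Genes that act with the members did not move past the fold in stroma-like or nephron progenitor-like nuclei. The 4 platelet-derived growth factor genes, whose products bind the receptors encoded by Pdgfra and Pdgfrb, gave 0 of 4 past 1.5-fold in stroma-like nuclei, with log2 ratios of 0.23 for Pdgfa, −0.17 for Pdgfb, −0.12 for Pdgfc and 0.13 for Pdgfd. Of 24 other regulators of stroma, such as Meis1, Fat4 and Aldh1a2, 0 passed it in either direction in stroma-like nuclei (median −0.01, 12 above 0) and 0 in nephron progenitor-like nuclei. Among all genes 1.03% were higher and 0.693% lower in stroma-like nuclei, and 1.04% and 1.47% in nephron progenitor-like nuclei. In lists this short, counts of 0 are near those shares. In endothelial-like nuclei 1 of the 21 with enough counts did, Sall1, a zinc finger factor, at 13.4 CPM in Enl-WT and 23.6 CPM in Enl-T1 (log2 ratio 0.82, 0.28 to 1.35).

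Some peaks over the members were called in only 1 library, and the other library has no count there, so they can be described but not compared. Tcf21 had the most at stake, because 2 peaks called in Enl-WT alone, one 1.78 kb upstream with 1888 counts and one over a coding exon 2.25 kb downstream with 1277, together held more counts (3165) than its shared region did in Enl-WT (2023). Counting them as 0 in Enl-T1 would take the Tcf21 log2 ratio to −1.16 in stroma-like and −1.50 in nephron progenitor-like nuclei, so the near-equal Tcf21 value above covers its start alone. Foxd1 had 1 such peak in Enl-WT, over its UTR 4.62 kb downstream with 1011 counts. Ebf3 had 6 of its 18 Enl-T1 peaks called there alone (25.4 CPM over all nuclei) and 4 of its 16 Enl-WT peaks (9.03 CPM), and Ebf1 6 of 37 (16.9 CPM) and 5 of 36 (8.81 CPM). Ebf2 had 1 of 17 (3.03 CPM) and 9 of 25 (23.5 CPM), among the latter the peak over its annotated start with 678 counts. Over all peaks 13.4% of Enl-T1 and 30% of Enl-WT peaks were called in 1 library alone, and with so few peaks a gene nothing is read from the members' shares.

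Over the 23 clusters of at least 100 nuclei, which share 2 libraries and their depth, the gene most like each member in log2 CPM was Scarf2 for Foxd1 (Pearson r = 0.83), Pde11a for Tcf21 (0.92), Ldb2 for Ebf1 (0.96), Dennd1a for Ebf2 (0.90), Gm28308 for Ebf3 (0.87), Lsp1 for Tbx18 (0.90), Gria4 for Pdgfra (0.93) and Vstm4 for Pdgfrb (0.95). Pdgfrb was itself among the 3 genes most like Foxd1 (0.80), and Hoxa3 (0.86) and Hoxa7 (0.85) were among the 3 most like Ebf3. Among the members, Ebf1 and Pdgfra were close (0.85), whereas Ebf2 and Pdgfra were near 0 (0.00345).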

How the data were processed

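Single-nucleus ATAC-seq was done on kidneys of E15.5 mice, 1 library each of Enl-WT and Enl-T1. The authors deposited, per library, raw counts of transposase cuts per peak and barcode with the peak and barcode lists, made with Cell Ranger ATAC 2.1.0 on mm10 according to the submitters' processing notes, with peaks called in each library separately. Those 2 matrices held 138176616 counts over 9628 barcodes and 159560 peaks in Enl-WT, and 110265593 counts over 13376 barcodes and 130027 peaks in Enl-T1. A library called with fewer or narrower peaks loses counts at its edges, which bears on every ratio here.

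The members and gene lists were chosen with earlier results of these data known, and the rule that scored cluster names was set after clusters were known. Barcodes with 2000 to 100000 counts were kept. Peaks of both libraries that overlapped by at least 1 bp were joined into 110706 shared regions, and those over a GENCODE M21 gene body or 2000 bp upstream were summed per gene. Nuclei of both libraries were clustered together (latent semantic components 2 to 30, 15 neighbours, Leiden resolution 1), leaving out 175 regions within 100 kb of a member. A cluster was named from markers where at least 3 were raised by 0.5 on the log2 scale. Their mean score also had to reach 0.4 and lead that of any other lineage by 0.1. Clusters were left unnamed where their leading genes held more markers of another lineage, where depth was low with no own marker among those genes, or where the most counted regions took a large share. Doublets were not removed, except in an alternative that took out 730 Enl-WT and 1352 Enl-T1 barcodes.

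Counts per class were scaled to 1000000 counts in shared regions (CPM). With 1 library per group no test was made and no p-value is given. A value was called when it differed by at least 1.5-fold and had at least 200 counts in the class. Intervals are at 95%, exact Poisson for levels, the interval of a ratio of Poisson counts for ratios and exact binomial for shares. All 8 members are described, with the region over the start, the most counted other region, and the 2 highest and 2 lowest regions in stroma-like nuclei, 1 of which is not reported here. The calculation was tested on simulated data. Python 3.11.15, numpy 2.4.6, scipy 1.17.1, pandas 2.3.3, scikit-learn 1.9.0, leidenalg 0.10.2, igraph 0.11.9, pysam 0.24.0, samtools 1.23.1 and matplotlib 3.10.9 were used.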

Additional observations from a re-analysis of the deposited data

Results flagged for a closer look

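Some members had ratios of opposite direction in 2 classes of nuclei, and none of these differences was tested, because each rests on 1 library per genotype. Ebf2 was lower in Enl-T1 stroma-like nuclei and higher in nephron progenitor-like nuclei, a gap of 0.23 on the log2 scale. Tbx18 was higher in stroma-like and lower in nephron progenitor-like nuclei, a gap of 0.64. Pdgfrb was higher in endothelial-like and lower in nephron progenitor-like nuclei, a gap of 1.38.

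Peaks called in Enl-T1 alone held signal that the comparisons do not use. Over all nuclei of Enl-T1 these peaks came to 16.9 CPM in Ebf1, 3.03 CPM in Ebf2, 25.4 CPM in Ebf3 and 4.36 CPM in Tbx18. The counts of Enl-WT at the same positions were not analysed here.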

How the results depend on the processing

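No paired analysis was possible because each genotype had 1 library. Of 85 alternative values of the counts of members and regions and of the shares of nuclei with a Foxd1 count, 69 stayed within 1.5 times or within the interval and 16 moved. Such counts and shares have no direction that could reverse. They do not cover the shares of nuclei per class, where that of nephron progenitor-like nuclei turned. The members lower in nephron progenitor-like nuclei (2, Foxd1 and Pdgfrb) became 1 with matched regions (Pdgfrb, since Foxd1 has no matched region), with each library clustered alone, with Leiden resolution 0.5, with doublets removed and with the unnamed cluster added (Foxd1 each time), and 0 per kb of peak. The last 2 alternatives were chosen after seeing the data. Over its alternatives the Foxd1 log2 ratio there ran from −1.76 to −0.54 and that of Pdgfrb from −0.79 to −0.25, none above 0. Other members passed 1.5-fold lower in these nuclei in single alternatives, Tbx18 from the start region alone (−0.74) and Tcf21 with all peaks (−1.50). In stroma-like nuclei, the members lower became 1 (Tcf21) with all peaks, Pdgfrb ran from −0.41 to −0.11 and Foxd1 from −0.32 to 0.38.

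By region, with no minimum on counts 11 member regions were higher in stroma-like nuclei, and 14 were higher and 11 lower in nephron progenitor-like nuclei. With at least 5000 counts per nucleus 7 were higher in the latter, and with member loci kept in clustering 3 were lower in stroma-like nuclei. The share of stroma-like nuclei with a Foxd1 count was 20.8% in Enl-WT and 12.8% in Enl-T1 unthinned, and 14.04% and 10.5% when thinned to 5000 counts. Of 214 alternative log2 ratios of single members in stroma-like and nephron progenitor-like nuclei, 184 kept their sign. The ratios of single regions were not followed in this way. Few counts limited single regions, of which 11 of 75 fell below 200 counts in stroma-like nuclei.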

Other observations

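Nephron tubule-like nuclei, which numbered 1722 for Enl-WT but only 180 for Enl-T1, were the class with the highest Ebf1 ratio. Ebf1 was at 99.98 CPM in Enl-WT and 163 CPM in Enl-T1 there (log2 ratio 0.71, 0.44 to 0.97), and Pdgfra at 45.9 and 68.2 CPM (0.57, 0.14 to 0.98). Ebf2 was at 87.8 and 115 CPM (0.39, 0.07 to 0.70). Foxd1, Tcf21, Ebf3, Tbx18 and Pdgfrb had intervals that held 0 in these nuclei.

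Read over all nuclei of each library, where the shares of the classes also differ, Foxd1 was at 27.8 and 21.6 CPM (log2 ratio −0.37, −0.48 to −0.26) and Pdgfrb at 70.5 and 63.0 CPM (−0.16, −0.23 to −0.10). Ebf1 was at 170 and 196 CPM (0.21, 0.17 to 0.25) and Ebf3 at 62.8 and 73.9 CPM (0.23, 0.17 to 0.30).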
